A study of Mus musculus with 38 samples.

Results

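The 8 genes Snai1, Snai2, Zeb1, Zeb2, Twist1, Twist2, Vim and Cdh2, which drive or mark the epithelial-mesenchymal transition (EMT), were followed in mouse high-grade serous ovarian cancer (HGSOC). They were picked by symbol from the 55487 genes of the tumor and cell line count tables, and all 8 passed the expression filter in both tables, among 16241 genes kept in tumors and 13742 in cell lines. In the cell lines Twist2 passed it only through the HGS2 libraries. RNA sequencing had been done on 34 whole omental tumors of 2 transplanted models and on 4 libraries of the cell lines behind them. The 60577 model was grown in FVB mice and the HGS2 model in C57BL/6J mice, which were female, aged 8 to 9 weeks, and received the cells by intraperitoneal injection. Treated mice were given 3 weekly doses of carboplatin (20 mg/kg) with paclitaxel (10 mg/kg), starting on day 21 in 60577 and on day 49 in HGS2, and control mice were given the vehicle. Tumors were taken 1 day (TP1), 7 days (TP2) or 21 days (TP3) after the last dose.

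In 60577 there were 3 control and 3 treated tumors at TP1, 3 control and 4 treated at TP2, and 4 treated at TP3. In HGS2 there were 3 control and 3 treated tumors at TP1, 4 control and 3 treated at TP2, and 4 treated at TP3. No control tumors were taken at TP3, so TP3 treated tumors were set against the TP2 controls, which also served the TP2 comparison. TP3 tumors were taken later than those controls, so treatment and tumor age cannot be told apart in that comparison. Among treated tumors, time since the last dose and tumor age cannot be told apart either. The models differ in cell line, mouse strain and tumor age at once, so these cannot be told apart. The 60577 and HGS2 cell lines were grown as monocultures without treatment, in 2 libraries each. HGS2 TP3 treated replicate 1 had the lowest total count of all tumors, 17839641, and is not among the tumors of the study's tables. It was left out of the fits, and its values are given separately.

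EMT is the change by which epithelial cells loosen their junctions, lose E-cadherin and keratins and gain the shape and motility of mesenchymal cells. Snai1 and Snai2 encode zinc finger repressors, Zeb1 and Zeb2 zinc finger and homeobox repressors, and Twist1 and Twist2 basic helix-loop-helix factors, all of which bind E-boxes in gene promoters and lower Cdh1 (E-cadherin). Vim encodes vimentin, the intermediate filament protein of mesenchymal cells, and Cdh2 encodes N-cadherin, which takes the place of E-cadherin in many EMT settings. Outside carcinoma cells, several of these genes are also active in fibroblasts, and Zeb2 in macrophages and lymphocytes. Whole tumors hold all of these cells, and in bulk RNA fewer cells of a type and less RNA per cell cannot be told apart.

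Because the factors themselves bind E-boxes, the promoters of the members were searched for CANNTG, the general E-box, and for CACCTG or CAGGTG, a form of it read on either strand. RefSeq promoters (build GRCm38.p6, the 250 bases before a start site) were found for 5 of the 8 members, at 8 start sites. Snai2, Zeb1 and Cdh2 had none in the table. In the lines that follow, the capitals mark the only match to either motif at those 8 start sites. Snai1 is shown because it holds that match. Zeb2, which changed with treatment in 60577, and Twist1, which differed between the models, are shown because they hold none.
Snai1, chr2:167537945-167538194, plus strand: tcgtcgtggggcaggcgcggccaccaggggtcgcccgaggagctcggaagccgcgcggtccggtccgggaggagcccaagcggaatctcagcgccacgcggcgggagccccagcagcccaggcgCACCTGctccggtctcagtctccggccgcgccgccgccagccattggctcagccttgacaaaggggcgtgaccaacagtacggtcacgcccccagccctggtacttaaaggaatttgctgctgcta
Zeb2, chr2:45117443-45117692, minus strand, the most upstream of 4 start sites: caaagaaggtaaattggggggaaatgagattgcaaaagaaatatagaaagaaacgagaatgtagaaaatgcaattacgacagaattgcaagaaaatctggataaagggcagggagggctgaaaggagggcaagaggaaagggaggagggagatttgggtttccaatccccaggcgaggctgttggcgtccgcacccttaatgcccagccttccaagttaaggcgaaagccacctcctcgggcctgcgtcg
Twist1, chr12:33957421-33957670, plus strand: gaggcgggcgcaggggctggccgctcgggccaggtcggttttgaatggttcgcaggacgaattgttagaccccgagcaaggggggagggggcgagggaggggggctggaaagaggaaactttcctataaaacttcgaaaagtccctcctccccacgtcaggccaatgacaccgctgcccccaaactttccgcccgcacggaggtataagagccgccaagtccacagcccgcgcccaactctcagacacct
The match in Snai1, CACCTG, lay 126 to 121 bases before the start. No CANNTG was found at the 4 start sites of Zeb2 or at those of Twist1, Twist2 and Vim, which says only that these letters are not in these windows. Of 32851 promoters of the same length, 66.22% held CANNTG and 17.22% held CACCTG or CAGGTG.

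In the annotation (GRCm38), Snai1 lies at chr2:167538195-167542814, Vim at chr2:13573927-13582826 and Zeb2 on the minus strand at chr2:44983632-45117395. Snai2 lies at chr16:14705852-14709385, Twist1 at chr12:33957671-33959829 and Twist2 at chr1:91801461-91848028. Zeb1 lies at chr18:5591860-5775467 and Cdh2 on the minus strand at chr18:16588877-16809246. Antisense genes overlap exons of Zeb2 (Zeb2os, 653 bases), Twist2 (Gm29100, 1477 bases) and Zeb1 (Gm10125, 198 bases). Over the 34 tumors their median counts were 136.5 against 8902 for Zeb2, 8 against 138 for Twist2 and 50 against 1783.5 for Zeb1. The libraries were strand-specific, but whether the counting used strand is not given in the sources used here.

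Levels were compared between genes as RPKM, reads divided by exon length and by library size, scaled separately in tumors and in cell lines. The length was the union of all annotated exons, 19942 bases for Zeb2, 8066 for Cdh2 and 1621 for Snai1. The order of the genes depends on this choice of length. Vim was the highest of the 8 in every tumor, from 98 to 379.7 RPKM in 60577 and from 196 to 559 RPKM in HGS2. Twist2 had the lowest median RPKM in both models, 1.05 over the 17 tumors of 60577 and 2.75 over the 17 of HGS2. In 60577 control tumors the order of the medians was Vim (199 RPKM), Cdh2 (11.2 RPKM), Zeb2 (8.29 RPKM), Snai1 (5.90 RPKM), Zeb1 (4.61 RPKM), Twist1 (3.84 RPKM), Snai2 (1.05 RPKM) and Twist2 (0.732 RPKM). Neighbors in that order overlapped over the 6 tumors, except that Vim and Cdh2 each lay above the next gene in every tumor and the lowest Twist1 level (2.75 RPKM) was above the highest Snai2 level (1.23 RPKM). In HGS2 controls the order of the medians was Vim (374 RPKM), Snai1 (20.6 RPKM), Cdh2 (15.6 RPKM), Zeb2 (15.5 RPKM), Twist1 (13.3 RPKM), Zeb1 (6.05 RPKM), Snai2 (5.0 RPKM) and Twist2 (2.93 RPKM), and every gene below Vim overlapped its neighbor.

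**Figure D1:**
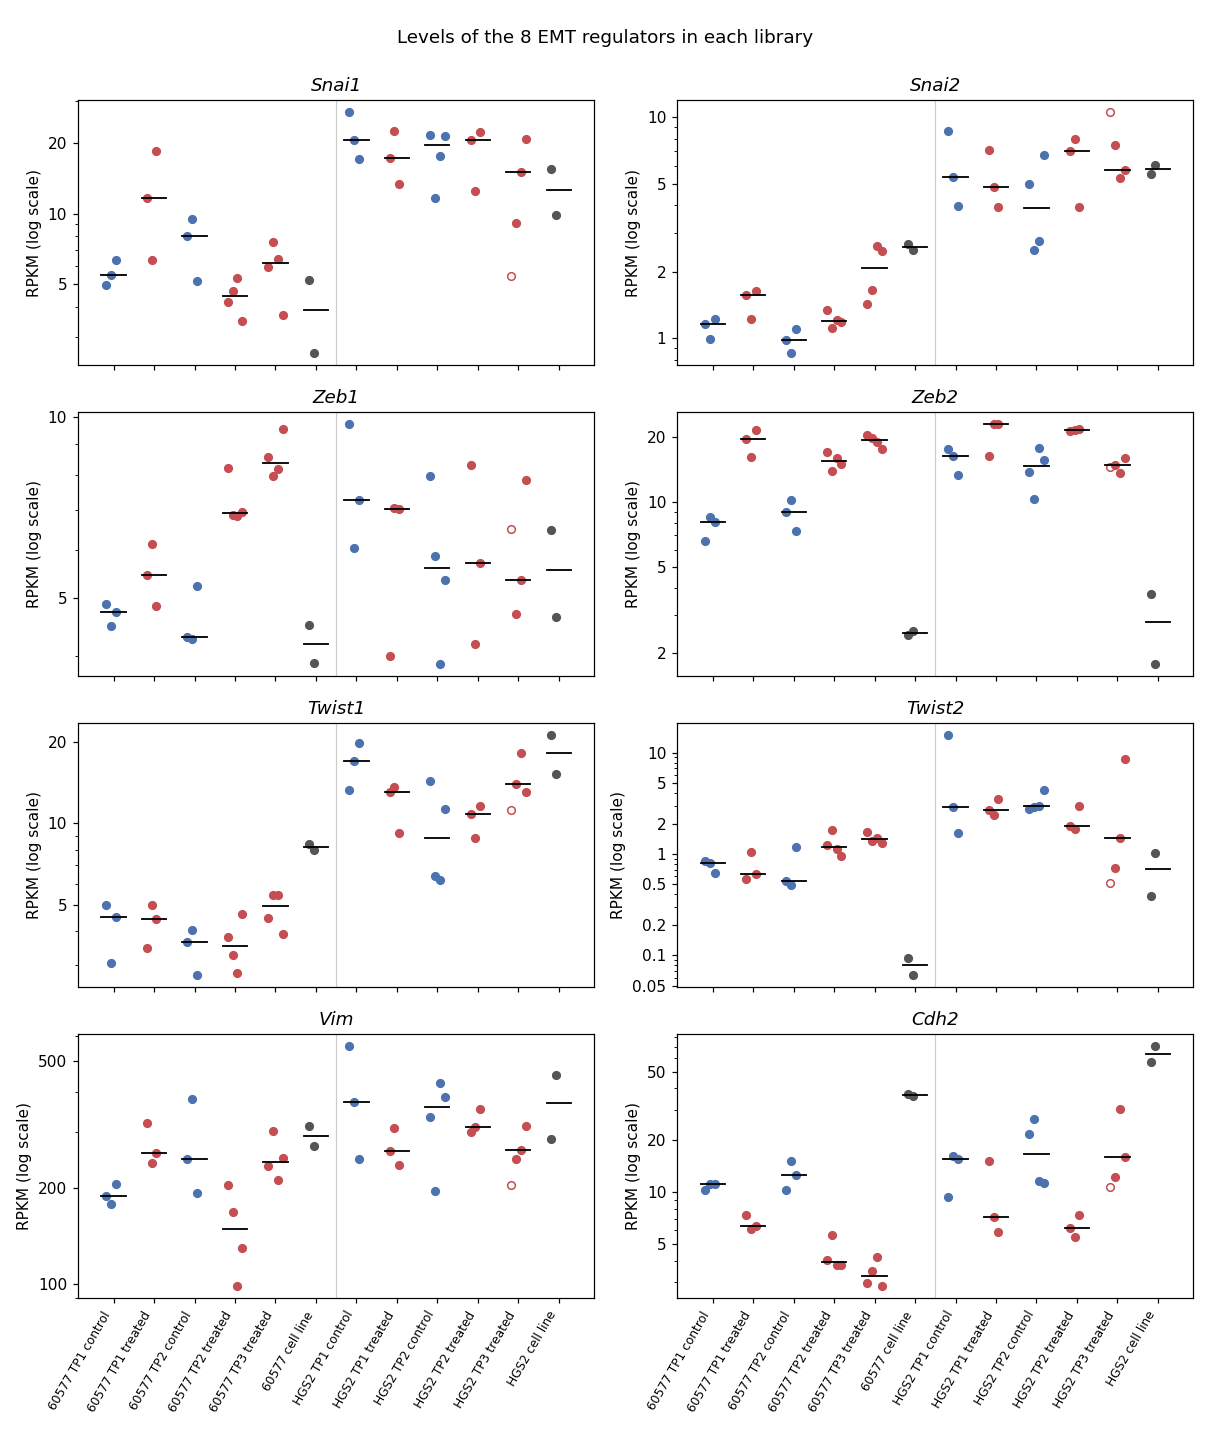
Level of each of the 8 genes in each library, in RPKM on a log scale, with 1 point per library and the black bar at the group median. Blue points are control tumors, red points treated tumors and gray points cell lines, with 60577 left and HGS2 right of the gray line. The open red point is HGS2 TP3 treated replicate 1, which is not in the median. Zeb2 in 60577 lies at 6.61 to 10.2 RPKM in the controls and at 13.8 to 21.5 RPKM in the treated tumors.

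The tissue label was checked against markers of the cells it could hold. Cdh1 was present in both cell lines, at 8.77 and 11.5 RPKM in 60577 and at 2.13 and 2.74 RPKM in HGS2, but Epcam, another epithelial marker, stood at 0 and 0.0737 RPKM in the HGS2 line. Of 5 macrophage markers, Adgre1, C1qa and C1qb were at 0 in all 4 cell line libraries, while the summed level of the 5 was between 164 and 1577 RPKM in the tumors. Pancreatic acinar genes made up 3.84% of the counts of HGS2 TP1 control replicate 3, 5.92% of HGS2 TP2 control replicate 2 and 3.80% of HGS2 TP3 treated replicate 2, against at most 0.115% in any other tumor. Within HGS2, the log2 fold changes of Cdh2 and Zeb2 are also given without these 3 tumors.

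The first question was how carboplatin and paclitaxel changed the 8 genes in the 60577 model, described in the study as sensitive to chemotherapy. A gene was taken to have risen or fallen when its adjusted p in edgeR's quasi-likelihood test was below 0.05, and was called when its log2 fold change was also beyond 1 in either direction. After 1 day, Zeb2 and Snai1 were called higher and none was called lower, so 2 of 8 were called against 15.6% of all genes tested and 9.65% called higher. Cdh2 fell by less than the fold limit, which made 3 of 8 by adjusted p alone, against 33.3% of all genes. The other 5 did not pass the test.

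Zeb2 was 6.61, 8.51 and 8.06 RPKM in the TP1 control tumors and 19.5, 16.1 and 21.5 RPKM in the treated ones. All treated tumors lay above all controls. On the log2 scale the change was 1.31 ± 0.15 (SE, 3 against 3 tumors, adjusted p = 3.106e-05), which is 2.47-fold, and it was called without each of the 6 tumors in turn. Snai1 was 4.98, 5.46 and 6.33 RPKM in controls and 11.6, 6.37 and 18.5 RPKM after treatment. One treated tumor, replicate 2, barely cleared the highest control, so the spread among treated tumors was wide. Snai1 changed by 1.13 ± 0.34 on the log2 scale (adjusted p = 0.0188). The call was lost without TP1 control replicate 1 (adjusted p = 0.0711), without TP1 control replicate 2 (adjusted p = 0.0535) and without TP1 treated replicate 3, where the log2 fold change was 0.69 (adjusted p = 0.127).

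Cdh2 moved the other way. It was 10.3, 11.1 and 11.2 RPKM in TP1 controls and 7.32, 6.13 and 6.33 RPKM in treated tumors, with no overlap. It fell by 0.72 ± 0.18 on the log2 scale (adjusted p = 0.0073). Vim was 188, 177 and 205 RPKM in controls and 321, 239.5 and 258 RPKM after treatment, again with no overlap, but its log2 fold change of 0.53 ± 0.27 did not pass (adjusted p = 0.143). Control and treated tumors did not overlap in 4 of 8 members, against 55.9% of all genes, so this count was no higher than the background. The log2 fold changes of Snai2 (0.39 ± 0.23), Zeb1 (0.23 ± 0.11), Twist1 (0.05 ± 0.24) and Twist2 (-0.03 ± 0.32) had adjusted p between 0.128 and 0.952.

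Other genes of the EMT program were taken from lists, and counts over lists use the same call. Of 13 epithelial genes tested, 9 were called lower and 1 higher at TP1, with a median log2 fold change of -1.39 against 0.00 over all genes. Keratins led them, with log2 fold changes of -2.11 ± 0.31 for Krt18, -1.98 ± 0.26 for Krt7 and -1.92 ± 0.33 for Krt8. Cdh1 went from 10.5, 15.7 and 14.6 RPKM to 8.21, 5.97 and 5.35 RPKM, and its log2 fold change was -1.06 ± 0.25 (adjusted p = 0.0052). Any part of the repressors in this fall was not tested. Epcam fell too, by 1.43 ± 0.39 on the log2 scale (adjusted p = 0.0107). Of 16 mesenchymal effector genes, 6 were called higher and none lower, and the matrix-degrading enzymes Mmp9 (log2 fold change 4.70 ± 0.83), Mmp3 (4.42 ± 0.83) and Mmp2 (1.75 ± 0.32) changed most. Among 12 other EMT transcription factors only Prrx1 (log2 fold change 1.41 ± 0.17) was called higher and only Foxq1 (-1.40 ± 0.20) lower. Of 16 corepressors, partners and turnover factors, Id2, an inhibitor of helix-loop-helix proteins, was called higher (1.27 ± 0.18), and its relative Id1 (-1.01 ± 0.22) and the histone methyltransferase Ezh2 (-1.5 ± 0.10) lower. Of 15 upstream signals, Il6 (1.71 ± 0.62) and Notch1 (1.5 ± 0.23) were called higher and none lower.

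Markers of several cell types moved at the same time. Tumor epithelial markers summed to between 775 and 961 RPKM in TP1 controls and to between 152 and 300.1 RPKM in treated tumors, and all 6 tested of the 7 listed were called lower. These markers share genes with the epithelial genes above. Here and at TP2 and TP3, their fall and that of the epithelial genes are therefore not separate results. Fibroblast markers summed to between 303 and 414 RPKM in controls and to between 1113 and 1429 RPKM after treatment, with 5 of 8 called higher. Leukocyte and T cell markers went from between 4.79 and 10.5 RPKM to between 15.0 and 29.9 RPKM, with 4 of 5 called higher. Macrophage markers ranged from 243 to 443 RPKM in controls and from 438 to 589 RPKM in treated tumors, with none of 5 called. The part of these cell types in the changes of Zeb2, Snai1, Cdh2 and Cdh1 was not tested.

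At TP2, 7 days after the last dose, Cdh2 was the only member called, 1 of 8 against 24.4% of all genes. By adjusted p alone 6 of 8 passed, against 58.4% of all genes, with Zeb1, Zeb2 and Twist2 higher and Cdh2, Vim and Snai1 lower. Snai2 and Twist1 did not pass, with log2 fold changes of 0.30 ± 0.22 and 0.05 ± 0.22.

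Cdh2 stood at 10.3, 15.2 and 12.5 RPKM in TP2 controls and at 4.03, 5.66, 3.76 and 3.78 RPKM in the 4 treated tumors. Every treated tumor was below every control and below every TP1 treated tumor. The log2 fold change was -1.57 ± 0.17 (adjusted p = 6.376e-06), a level of 0.338 of the control. Zeb2 was 9.01, 10.2 and 7.35 RPKM in controls and 16.9, 13.8, 15.9 and 14.9 RPKM after treatment, a log2 fold change of 0.78 ± 0.14 (adjusted p = 0.000317). Zeb1 was 4.31, 4.28 and 5.23 RPKM in controls and 8.21, 6.88, 6.85 and 6.95 RPKM after treatment, a log2 fold change of 0.64 ± 0.11 (adjusted p = 0.000181). In both ZEB genes the groups did not overlap. Together with Cdh2 and Snai2 this made 4 of 8 members without overlap, against 50.5% of all genes.

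Vim was 247, 379.7 and 193 RPKM in TP2 controls and 204, 168, 98 and 129.6 RPKM after treatment. Treated replicate 1 lay above control replicate 3, so the groups overlapped. The log2 fold change was -0.88 ± 0.25 (adjusted p = 0.0071), and it passed the fold limit without TP2 control replicate 3 (-1.08) or without TP2 treated replicate 1 (-1.09). Without TP2 control replicate 2, the highest control, it was -0.56 and did not pass (adjusted p = 0.0665). Snai1 was 8.01, 9.46 and 5.15 RPKM in controls and 4.20, 4.69, 5.30 and 3.48 RPKM in treated tumors. The ranges met at control replicate 3 and treated replicate 3. Its log2 fold change was -0.79 ± 0.31 (adjusted p = 0.0421). With the replicate number as a block over all 5 groups of the model it was -0.66 ± 0.32 and no longer passed (adjusted p = 0.0963). Without TP2 control replicate 3 it just passed the fold limit and was called (adjusted p = 0.0202). It did not pass without TP2 control replicate 1 or 2 or without TP2 treated replicate 1, 2 or 4, with adjusted p from 0.0598 to 0.175, the last at -0.58 without TP2 control replicate 2. Twist2 was 0.536, 0.499 and 1.17 RPKM in controls and 1.24, 1.71, 1.11 and 0.946 RPKM after treatment, a log2 fold change of 0.77 ± 0.30 (adjusted p = 0.0391). Control replicate 3 lay within the treated range, and without it the log2 fold change was 1.26 (adjusted p = 0.0025). Twist2 did not pass without TP2 control replicate 1 or 2 or without TP2 treated replicate 1 or 2, with log2 fold changes from 0.57 to 0.76 and adjusted p up to 0.163.

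Epithelial genes were further down at TP2, with 11 of 13 called lower, 1 higher and a median log2 fold change of -1.87 against 0.03 over all genes. Krt18 (-3.15 ± 0.29), Krt8 (-2.98 ± 0.31) and Cdh1 (-2.54 ± 0.24) changed most, and Epcam fell by 2.41 on the log2 scale. Cdh1 was 12.6, 13.8 and 23.3 RPKM in controls and between 2.03 and 3.82 RPKM in treated tumors. No mesenchymal effector gene was called higher and 4 of 16 were called lower, among them Lox (-1.89 ± 0.34) and Fn1 (-1.29 ± 0.28). Of the 12 other EMT transcription factors, 5 were called higher and 5 lower. Lef1, a partner of beta-catenin, had a log2 fold change of 2.13 ± 0.24, Hmga2 of -2.49 ± 0.52 and Foxq1 of -1.85 ± 0.18. Ezh2 (-1.51 ± 0.09) and Notch1 (1.45 ± 0.22) were the only calls among corepressors and upstream signals.

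Tumor epithelial markers summed to between 934 and 1484 RPKM in TP2 controls and to between 131 and 269.9 RPKM in treated tumors, with 6 of 6 tested called lower. Leukocyte and T cell markers rose from between 4.99 and 12.1 RPKM to between 36.9 and 64.4 RPKM, 5 of 5 called, and B cell markers from between 1.13 and 8.03 RPKM to between 25.5 and 63.9 RPKM, 4 of 4 called. Fibroblast markers were at 308 to 469.7 RPKM in controls and at 417 to 834 RPKM after treatment, with 4 of 8 called higher. Macrophage markers were at 164 to 556 RPKM and 255 to 707 RPKM, with 1 of 5 called higher. As at TP1, the part of these cells in the members' changes was not tested.

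At TP3, 21 days after the last dose, the treated tumors were set against the same TP2 controls, which were taken earlier. The differences given here therefore hold both treatment and tumor age. Snai2 and Zeb2 were called higher and Cdh2 lower, 3 of 8 against 24.4% of all genes. Zeb1 and Twist2 also rose, within the fold limit, so 5 of 8 passed by adjusted p, against 51.4% of all genes. The same 5 had no overlap between the groups, against 57.4% of all genes. These shares lay close to the background of the comparison.

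Snai2 was 0.987, 0.860 and 1.10 RPKM in TP2 controls and 1.42, 1.66, 2.62 and 2.49 RPKM at TP3. Treated replicates 3 and 4 were the highest of all 60577 tumors. The log2 fold change was 1.07 ± 0.22 (adjusted p = 0.00088), and it came to 0.99 without TP2 control replicate 2, 0.93 without TP3 treated replicate 3 and 0.97 without TP3 treated replicate 4, each below the fold limit. Zeb2 was 20.3, 19.8, 18.8 and 17.5 RPKM at TP3, a log2 fold change of 1.11 ± 0.14 (adjusted p = 1.596e-05). It came to 0.99 without TP2 control replicate 3 and to 0.95 with an offset for gene length and GC content. Cdh2 was 2.98, 3.50, 4.20 and 2.84 RPKM, a log2 fold change of -1.90 ± 0.17 (adjusted p = 6.058e-07). These tumors and those of TP2 hold the lowest Cdh2 values of the model.

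Zeb1 was 8.59, 7.98, 8.19 and 9.53 RPKM at TP3, a log2 fold change of 0.91 ± 0.11 (adjusted p = 8.506e-06). Twist2 was 1.64, 1.35, 1.45 and 1.29 RPKM, a log2 fold change of 0.99 ± 0.30 (adjusted p = 0.0133) that came to 1.47 without TP2 control replicate 3, 1.01 without TP3 treated replicate 2 and 1.04 without TP3 treated replicate 4, past the limit. It did not pass without TP2 control replicate 1 (adjusted p = 0.0635) or replicate 2 (adjusted p = 0.0684). Zeb1 just reached the limit without TP2 control replicate 3. Twist1 (0.47 ± 0.22, adjusted p = 0.0888), Snai1 (-0.35 ± 0.31, adjusted p = 0.367) and Vim (-0.13 ± 0.25, adjusted p = 0.696) did not pass. Snai1 and Vim, which had passed as lower at TP2, overlapped the control values, at 3.70 to 7.57 RPKM and at 212 to 301 RPKM.

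Of 13 epithelial genes, 10 were called lower and 1 higher at TP3, and Cdh1 was down to between 1.60 and 1.89 RPKM (log2 fold change -3.28 ± 0.25). Krt18 (-4.13 ± 0.30) and Krt8 (-3.56 ± 0.31) changed more than Cdh1, and Epcam fell by 2.35 on the log2 scale. Of 16 mesenchymal effector genes 2 were called higher, Mmp9 (1.83 ± 0.70) among them, and 4 lower, with Lox (-1.39 ± 0.34) among them. Other EMT transcription factors were again split, with 5 of 12 called in each direction, and Hmga2 (-3.48 ± 0.54), Etv4 (-2.89 ± 0.26) and Foxq1 (-2.67 ± 0.19) changed most. Ezh2 (-2.05 ± 0.09) and Id1 (-1.21 ± 0.20) were called lower among 16 corepressors, partners and turnover factors, and Notch1 (1.78 ± 0.22) and the TGF-beta receptor Tgfbr2 (1.12 ± 0.20) higher among 15 upstream signals. At TP3 tumor epithelial markers summed to between 94.0 and 152 RPKM, leukocyte and T cell markers to between 47.7 and 55.4 RPKM, fibroblast markers to between 942 and 1067 RPKM and macrophage markers to between 612 and 802 RPKM. Compared with TP2 controls, 6 of 6 epithelial markers tested were called lower, and 5 of 5 leukocyte and T cell, 6 of 8 fibroblast and 1 of 5 macrophage markers higher. The part of these cells in the members' changes was not tested.

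**Figure D2:**
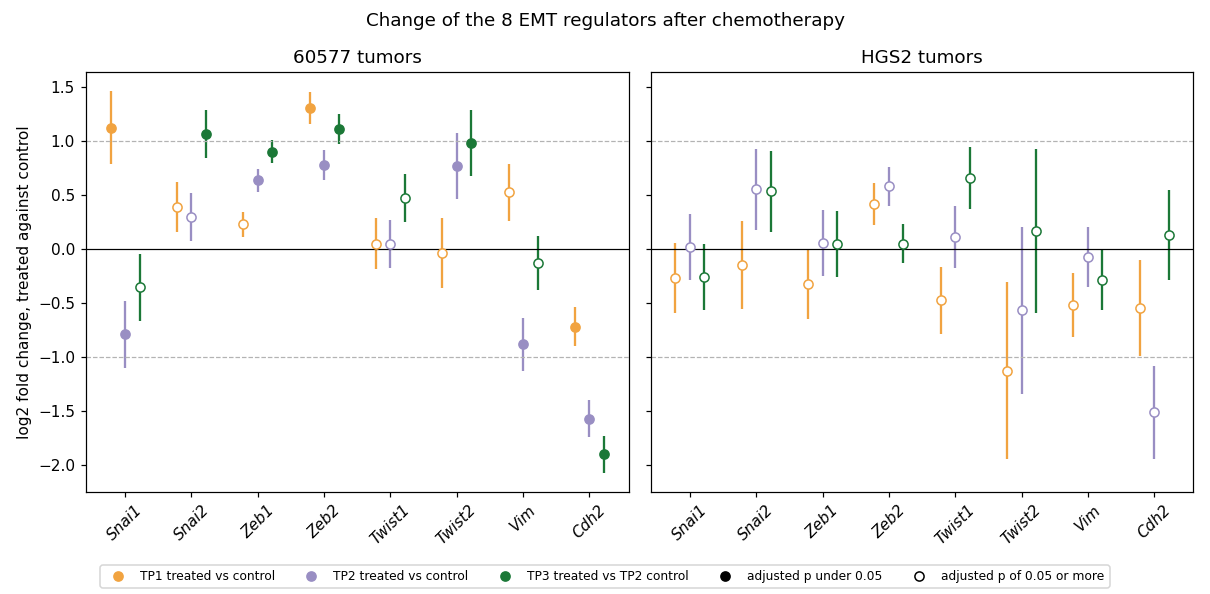
Change of each of the 8 genes after chemotherapy, as log2 fold change of treated against control tumors, in 60577 (left) and HGS2 (right). Orange is TP1, purple TP2 and green TP3 treated against TP2 control, bars are the standard error, filled points have an adjusted p under 0.05 and dashed lines mark a log2 fold change of 1 and -1. The green points also hold the later day on which the TP3 tumors were taken. In 60577 Zeb2 lies above 0 and Cdh2 below 0 at each time point, and in HGS2 every point is open.

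Treated 60577 tumors were then compared with each other over time. Snai1 was the member that changed most, and it was called lower at TP2 than at TP1 (log2 fold change -1.47 ± 0.31, adjusted p = 0.0088), 1 of 8 against 6.02% of all genes. It fell from between 6.37 and 18.5 RPKM to between 3.48 and 5.30 RPKM, without overlap. Without TP1 treated replicate 3, the tumor with the highest Snai1 level of the model, the log2 fold change was -1.04 (adjusted p = 0.0516). Vim (-0.87 ± 0.25, adjusted p = 0.0264) and Cdh2 (-0.63 ± 0.17, adjusted p = 0.0220) fell and Zeb1 rose (0.39 ± 0.11, adjusted p = 0.0232), all within the fold limit. Vim passed that limit without TP2 treated replicate 1 (-1.10), and Twist2 was called higher, at 1.04, without TP1 treated replicate 2. None of Vim, Cdh2 and Zeb1 passed without TP1 treated replicate 1, TP1 treated replicate 3 or TP2 treated replicate 4, nor did Vim and Cdh2 without TP2 treated replicate 3. There the adjusted p reached 0.130 for Vim (-0.74), 0.112 for Cdh2 (-0.54) and 0.0956 for Zeb1 (0.31). Zeb2 passed without TP2 treated replicate 1 (-0.40, adjusted p = 0.0418). By adjusted p 4 of 8 passed, against 19.3% of all genes, and 4 of 8 had no overlap, against 27.1%. Over the same interval, 10 of 16 mesenchymal effector genes were called lower and none higher, led by Mmp3 (-3.95 ± 0.72) and Mmp9 (-3.22 ± 0.69).

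From TP2 to TP3 none of the 8 was called, against 7.87% of all genes, and at adjusted p Snai2 (0.77 ± 0.20), Vim (0.75 ± 0.23) and Zeb1 (0.27 ± 0.10) rose, 3 of 8 against 35% of all genes. Zeb1 passed without TP2 treated replicate 1 but not without any other of the 8 tumors (adjusted p up to 0.126), and Vim did not pass without TP2 treated replicate 3, TP2 treated replicate 4 or TP3 treated replicate 2 (adjusted p up to 0.0733). Zeb2 passed without TP2 treated replicate 1 (0.42, adjusted p = 0.0185). Of the 8, 3 had no overlap between TP2 and TP3, against 29.2% of all genes. From TP1 to TP3, Snai1 alone was called, lower by 1.04 ± 0.31 on the log2 scale (adjusted p = 0.0238), 1 of 8 against 11% of all genes. The call was lost without TP1 treated replicate 1 (adjusted p = 0.057), TP1 treated replicate 3 (0.200), TP3 treated replicate 1 (0.0513) or TP3 treated replicate 4 (0.0628). Zeb1 (0.65 ± 0.11, adjusted p = 0.00075) and Twist2 (0.94 ± 0.30, adjusted p = 0.0319) rose and Cdh2 (-0.96 ± 0.17, adjusted p = 0.0012) fell, so that 4 of 8 passed by adjusted p against 26.6% of all genes, and 3 of 8 had no overlap against 46.3%. Twist2 was called without TP1 treated replicate 2 (1.25), and Cdh2 without TP1 treated replicate 2 (-1.01) or TP3 treated replicate 3 (-1.08). Twist2 did not pass without TP1 treated replicate 1 or 3 or TP3 treated replicate 1 or 3, with adjusted p up to 0.136, and Snai2 passed, at 0.62, without TP3 treated replicate 1 (adjusted p = 0.0469). Zeb2 had a log2 difference of 0.02 ± 0.14 between TP3 and TP1 treated tumors. Control tumors of TP2 and TP1 differed in none of the 8, nor in any gene, in edgeR. There 1501 genes had an unadjusted p under 0.05, none of them a member, and DESeq2 called 70 genes.

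The same questions were put to HGS2, described in the study as weakly responsive. None of the 16241 genes was called by edgeR in any of the 7 comparisons within HGS2, so no member was, and values are given without a direction. Between 152 and 1690 genes had an unadjusted p under 0.05, and DESeq2 called between 1 and 105 genes. On counts simulated for the HGS2 TP2 comparison, 55 of 100 genes set to change by 1.5 on the log2 scale were recovered, against 84 of 100 for the 60577 TP2 comparison.

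Zeb2 and Cdh2 were the only members whose HGS2 groups did not overlap at TP2, 2 of 8 against 13.1% of all genes. Cdh2 was 21.7, 26.7, 11.7 and 11.3 RPKM in the controls and 6.17, 5.47 and 7.38 RPKM in the treated tumors. Treated tumors lay below every control, though the controls spread over more than the gap. The log2 fold change was -1.51 ± 0.43, close in size to that of 60577, with an unadjusted p of 0.0039 and an adjusted p of 0.588. Zeb2 was 13.7, 10.3, 17.6 and 15.5 RPKM in controls and 21.3, 21.5 and 21.7 RPKM after treatment, a log2 fold change of 0.58 ± 0.18 (unadjusted p = 0.0058, adjusted p = 0.588). With the replicate number as a block over all 5 groups of the model, the log2 fold changes were -1.63 for Cdh2 and 0.64 for Zeb2, and both adjusted p were 0.703. Without the 3 acinar-rich tumors they were -1.23 for Cdh2 and 0.46 for Zeb2, and both adjusted p were 0.804. The remaining 6 members had log2 fold changes between -0.56 (Twist2) and 0.56 (Snai2), with adjusted p from 0.711 to 0.989.

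At TP1, Cdh2 in HGS2 was 9.40, 16.2 and 15.6 RPKM in controls and 15.1, 7.20 and 5.89 RPKM in treated tumors. Treated replicate 1 stood with the controls. Zeb2 was 17.6, 16.3 and 13.3 RPKM in controls and 16.3, 22.8 and 22.9 RPKM after treatment, where the same replicate was again at the control level. The log2 fold changes were -0.54 ± 0.45 and 0.42 ± 0.19, and none of the 8 members was free of overlap, against 5.21% of all genes. Without the acinar-rich tumors the log2 fold changes were -0.44 for Cdh2 and 0.29 for Zeb2. Snai1, called higher in 60577 at this time, was 26.9, 20.6 and 17 RPKM in HGS2 controls and 17.3, 22.3 and 13.3 RPKM after treatment (log2 fold change -0.26 ± 0.32, or -0.43 without the acinar-rich tumors).

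At TP3 the HGS2 tumors in the fit had Cdh2 levels of 12.2, 30.2 and 16 RPKM and Zeb2 levels of 14.8, 13.6 and 15.9 RPKM. Zeb2 lay within the range of the TP2 controls in all of them, while Cdh2 in TP3 replicate 3 was above every HGS2 control, the highest of which was 26.7 RPKM. The log2 fold changes were 0.13 ± 0.41 for Cdh2 and 0.05 ± 0.18 for Zeb2, and without the acinar-rich tumors they were 0.64 and -0.09. Compared with TP2 treated tumors, Cdh2 (log2 fold change 1.64 ± 0.46, unadjusted p = 0.0030, adjusted p = 0.412), Zeb2 (-0.53 ± 0.19, adjusted p = 0.416) and Twist1 (0.55 ± 0.31, adjusted p = 0.556) had no overlap, 3 of 8 against 17.2% of all genes. DESeq2 called Cdh2 in this comparison, with an adjusted p of 0.0426. Without the acinar-rich tumors the log2 fold changes were 1.87 for Cdh2 (adjusted p = 0.139), -0.55 for Zeb2 and 0.59 for Twist1. Against TP1 treated tumors the TP3 values differed by 1.07 ± 0.45 for Cdh2 and by -0.48 ± 0.19 for Zeb2 on the log2 scale (adjusted p = 0.720 for both), and without the acinar-rich tumors by 1.3 and -0.49. HGS2 TP3 treated replicate 1, outside the fits, was 10.7 RPKM for Cdh2 and 14.5 RPKM for Zeb2. It had the lowest Snai1 (5.45 RPKM) and Twist2 (0.512 RPKM) levels of the HGS2 tumors and the highest Snai2 level (10.5 RPKM).

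**Figure D3:**
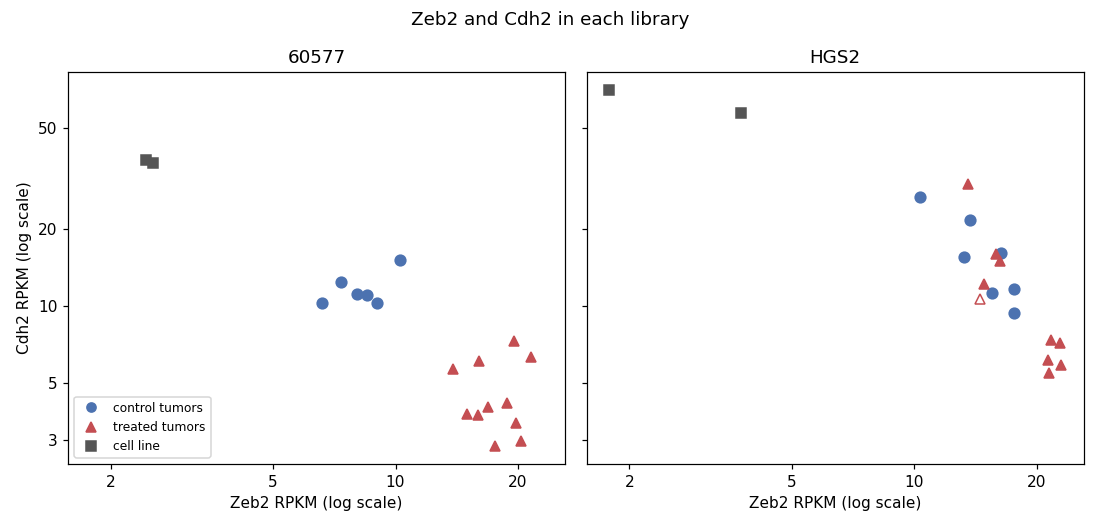
Zeb2 against Cdh2 in each library, both in RPKM on log scales, for 60577 (left) and HGS2 (right). Blue circles are control tumors, red triangles treated tumors, gray squares cell lines, and the open triangle is HGS2 TP3 treated replicate 1. In 60577 the treated tumors lie right of and below all controls, and in HGS2 the TP2 treated tumors lie at 21.3 to 21.7 RPKM of Zeb2 and 5.47 to 7.38 RPKM of Cdh2 while the TP3 treated tumors lie among the controls but for 1 with a Cdh2 level of 30.2 RPKM, above them.

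Whether the models responded differently was tested directly, as the HGS2 change minus the 60577 change. None of the 8 passed at TP1, where 1.45% of all genes were called, or at TP2, where 6.9% were. At TP1 Zeb2 came nearest, with a difference of -0.90 ± 0.24 on the log2 scale (adjusted p = 0.0501). It reached -1.02, -1.01 and -1.01 and was called without HGS2 TP1 control replicate 3, HGS2 TP1 treated replicate 3 or 60577 TP1 treated replicate 2, and it was -0.98 without the acinar-rich tumors (adjusted p = 0.0215). Over all settings and left-out libraries its adjusted p ran from 0.0070 with DESeq2 to 0.151 without HGS2 TP1 treated replicate 1, where the difference was -0.76. Snai1 differed by -1.41 ± 0.49 (adjusted p = 0.113) and Vim by -1.07 ± 0.41 (adjusted p = 0.154). Without the acinar-rich tumors the differences were -1.51 for Snai1 (adjusted p = 0.0729) and -1.27 for Vim (adjusted p = 0.0551), and neither passed. At TP2 the difference was 0.06 ± 0.45 for Cdh2 and -0.21 ± 0.23 for Zeb2, and the largest among the others were -1.34 ± 0.87 for Twist2, 0.80 ± 0.45 for Snai1 and 0.80 ± 0.38 for Vim. Related genes passed the same test. Prrx1 differed by -1.93 ± 0.34 at TP1 and by -1.05 ± 0.32 at TP2, Tcf4 by -1.12 ± 0.28 and Id2 by -1.51 ± 0.38 at TP1, and Ezh2 by 1.66 ± 0.30 at TP1 and 1.3 ± 0.28 at TP2. Among the mesenchymal effector genes, the difference at TP2 was 1.92 ± 0.51 for Lox and 1.39 ± 0.43 for Fn1. Both fell in 60577 (-1.89 and -1.29), and in HGS2 their log2 fold changes were 0.04 ± 0.36 and 0.10 ± 0.34.

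Control tumors of the models differed in the SNAI and TWIST genes. All of Snai1, Snai2, Twist1 and Twist2 were called higher in the 7 HGS2 controls than in the 6 controls of 60577, 4 of 8 members against 22% of all genes and 13.2% called higher. By adjusted p 7 of 8 were higher, against 28.1% of all genes, and the median log2 fold change of the members was 1.23, against 0.05 over all genes. The 4 calls held without each of the 13 control tumors in turn and without the acinar-rich tumors.

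Twist1 ranged from 2.75 to 4.98 RPKM in 60577 controls (median 3.84) and from 6.20 to 19.9 RPKM in HGS2 controls (median 13.3). No HGS2 control was as low as any 60577 control. HGS2 was higher by 1.73 ± 0.19 on the log2 scale (adjusted p = 7.792e-08), which is 3.32-fold. Snai2 ranged from 0.860 to 1.23 RPKM (median 1.05) in 60577 and from 2.52 to 8.64 RPKM (median 5.0) in HGS2, a log2 fold change of 2.26 ± 0.24 (adjusted p = 3.738e-08). Snai1 ranged from 4.98 to 9.46 RPKM (median 5.90) and from 11.6 to 26.9 RPKM (median 20.6), a log2 fold change of 1.60 ± 0.24 (adjusted p = 6.267e-06). For these 3 genes and for Twist2 and Zeb2 the controls did not overlap, 5 of 8 against 23% of all genes.

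Twist2 ranged from 0.499 to 1.17 RPKM in 60577 controls and from 1.62 to 15.0 RPKM in HGS2 controls, a log2 fold change of 2.61 ± 0.47 (adjusted p = 6.028e-05). The highest HGS2 value, in TP1 control replicate 1, lay far above the next, 4.31 RPKM. Zeb2 ranged from 6.61 to 10.2 RPKM and from 10.3 to 17.6 RPKM, a log2 fold change of 0.86 ± 0.12 (adjusted p = 1.516e-06). Vim (0.67 ± 0.20, adjusted p = 0.0065) and Zeb1 (0.52 ± 0.17, adjusted p = 0.0126) were also higher in HGS2, with overlapping ranges. Cdh2 did not pass (0.42 ± 0.23, adjusted p = 0.138).

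Of 16 mesenchymal effector genes, 12 were called higher in HGS2 controls and none lower, with a median log2 fold change of 2.01, and Mmp9 (3.78 ± 0.92), Mmp3 (3.49 ± 0.73) and Col1a1 (3.25 ± 0.39) differed most. Of 13 epithelial genes 7 were called lower and 1 higher, led by Krt18 (-3.27 ± 0.53), Krt8 (-3.18 ± 0.66) and Krt7 (-2.92 ± 0.53). Epcam was lower by 2.58 on the log2 scale (adjusted p = 0.0020), and Cdh1 had a log2 fold change of -1.02 (adjusted p = 0.0626). Among other EMT transcription factors, the largest called changes were in Prrx1 (1.61 ± 0.17), higher in HGS2, and in Foxq1 (-4.47 ± 0.47) and Sox4 (-1.23 ± 0.14), lower. Il6 (1.35 ± 0.40), Notch1 (1.43 ± 0.23), Tgfbr2 (1.13 ± 0.16) and Id2 (1.15 ± 0.19) were higher, and Ezh2 (-1.52 ± 0.14) and Id1 (-1.32 ± 0.24) lower. Fibroblast markers summed to between 303 and 469.7 RPKM in 60577 controls and to between 1197 and 4250 RPKM in HGS2 controls, with 6 of 8 called higher. Macrophage markers summed to between 164 and 556 RPKM and to between 598 and 1546 RPKM, with 5 of 5 called higher. The part of these cells in the members' differences was not tested. In the cell lines macrophage markers summed to at most 0.233 RPKM, and fibroblast markers to 150.3 and 113 RPKM in 60577 and to between 424 and 855 RPKM in HGS2.

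**Figure D4:**
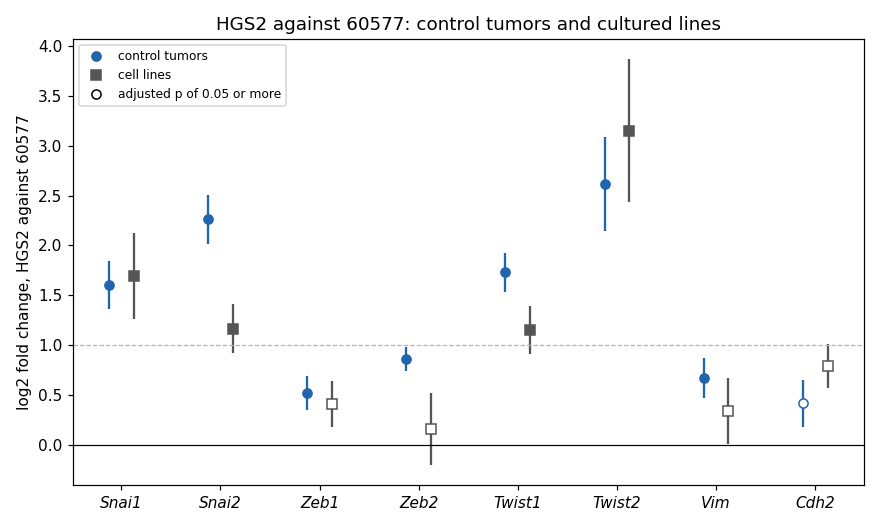
HGS2 against 60577 for each of the 8 genes, as log2 fold change with its standard error, in control tumors and in cell lines. Filled points have an adjusted p under 0.05 and the dashed line marks a log2 fold change of 1. Snai1, Snai2, Twist1 and Twist2 lie above 1 in both comparisons.

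In monoculture, the same 4 genes were called higher in the HGS2 line than in the 60577 line, against 15.9% of all 13742 genes called and 7.55% called higher. Of these, Twist2 was kept by the expression filter only through the HGS2 line, where it was higher. Control tumors and cell lines came from separate fits of separate libraries. On counts simulated for the lines, 54 of 100 genes set to change by 1.5 on the log2 scale were recovered. In that simulation 24 unchanged genes were called, against 6 for the HGS2 TP2 comparison and 1 for the 60577 TP2 comparison. With 1 library left in a line, the spread came from the other line alone and the lone library was assumed to vary like it. All 4 calls held without HGS2 line replicate 2, and Snai2 and Twist2 held without HGS2 line replicate 1, where Twist1 came to 0.89 and Snai1 to an adjusted p of 0.0555. Without 60577 line replicate 1 or replicate 2 none of the 4 passed, with log2 fold changes of 1.21 and 1.12 for Snai2, 1.19 and 1.11 for Twist1, 3.45 and 2.88 for Twist2 and 2.30 and 1.27 for Snai1.

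Twist1 was 8.43 and 7.96 RPKM in the 60577 line and 21.2 and 15.2 RPKM in the HGS2 line, a log2 fold change of 1.15 ± 0.24 (adjusted p = 0.0312). Snai2 was 2.67 and 2.51 RPKM in 60577 and 5.52 and 6.08 RPKM in HGS2, a log2 fold change of 1.16 ± 0.24 (adjusted p = 0.0309). Snai1 was 5.24 and 2.56 RPKM in 60577 and 15.4 and 9.88 RPKM in HGS2, a log2 fold change of 1.70 ± 0.43 (adjusted p = 0.0498). For each of these genes both HGS2 libraries lay above both 60577 libraries. Twist2 was scarce, at 11 and 9 reads in the 60577 line and 36 and 121 reads in the HGS2 line, or 0.0949, 0.0636, 0.382 and 1.03 RPKM. Its log2 fold change of 3.15 ± 0.72 (adjusted p = 0.0379) rests on those few reads. Both 60577 libraries lay below the filter of 1 CPM, so the Twist2 call is not read together with the other calls.

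Cdh2 was 37.3 and 36.3 RPKM in the 60577 line and 57.0 and 70.5 RPKM in the HGS2 line (log2 fold change 0.79 ± 0.22, adjusted p = 0.0647). Both lines lay above every tumor of their model, where the highest Cdh2 levels were 15.2 RPKM in 60577 and 30.2 RPKM in HGS2. Zeb2 stood at the opposite end, at 2.43 and 2.53 RPKM in the 60577 line and 3.76 and 1.79 RPKM in the HGS2 line, below every tumor of either model. Tumors and lines were scaled separately, so these levels are set side by side without a test. Vim (313 and 270.5 RPKM against 284 and 454 RPKM) and Zeb1 (4.51 and 3.89 RPKM against 6.50 and 4.64 RPKM) did not pass, nor did Zeb2, with adjusted p of 0.502, 0.262 and 0.785. The log2 fold changes of Zeb1 and Zeb2 were 0.41 and 0.16. Without HGS2 line replicate 2, the lower HGS2 library in both genes, they were 0.68 and 0.65. Cdh2 came to 0.94 without HGS2 line replicate 1 and to 0.68 without replicate 2. Groups did not overlap in 6 of 8 members, against 66.6% of all genes.

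Of 12 epithelial genes tested in the lines, 8 were called lower in HGS2 and none higher. Cldn3 (-9.33 ± 0.73), Crb3 (-5.54 ± 1.16) and Epcam (-5.38 ± 0.96) differed most, and Cdh1 was lower by 2.06 on the log2 scale (adjusted p = 0.0082). Of 15 mesenchymal effector genes 6 were called higher and none lower, with Col1a2 (4.87 ± 0.74), Col1a1 (4.34 ± 0.76) and Lox (3.51 ± 0.62) first. Prrx1 (3.02 ± 0.23) was higher and Klf8 (-3.43 ± 0.71) and Etv4 (-2.95 ± 0.35) lower among 10 other EMT transcription factors. Hdac1, a histone deacetylase that SNAI proteins recruit, was higher (1.46 ± 0.20), as were Id1 (1.12 ± 0.18), Egfr (2.02 ± 0.40) and Hif1a (1.3 ± 0.26), and Ezh2 (-1.3 ± 0.32) and Jag1 (-1.12 ± 0.18) were lower.

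The genes whose level followed each member most closely were ranked by the smaller of the Pearson correlations of log2 CPM within the 17 tumors of 60577 and the 16 fitted tumors of HGS2. Tumors of a model share treatment groups and cell makeup, so these are descriptions. Zeb2 was followed most closely by the leukocyte genes Selplg (smaller r = 0.92), Ptafr (0.91) and Arhgap30 (0.90). Zeb1 was followed by Fat4 (0.90), Fez1 (0.85) and Ddr2, a collagen receptor (0.81), and Ddr2 also stood among the closest to Twist2 (0.65), after Fcrls (0.67) and Diras2 (0.65). For Snai1 they were Srxn1 (0.86), Ptpn9 (0.83) and the fibronectin receptor subunit Itga5 (0.82). For Vim they were Myadm (0.84), Actb, which encodes beta-actin (0.84), and Capza1, an actin capping protein (0.82). Cdh2 was followed by P4hb, a protein disulfide isomerase (0.91), Get4 (0.89) and 2310039H08Rik (0.88). Twist1 had no gene as close, the highest being Bcl7b (0.61).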

How the data were processed

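Per the labels and the methods of the study, the authors trimmed reads with Trim Galore 0.6.5, mapped them to GRCm38 (mm10) with STAR 2.7.0f and estimated expected counts per gene with RSEM. The deposited values are these expected counts, without normalization. Totals ran from 17839641 to 49299421 per tumor (median 27358633) and from 31633099 to 42461989 per cell line library.

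Values were rounded before fitting, and a gene was kept where 25% or more of the libraries reached 1 CPM. TMM scaling and the two-sided quasi-likelihood test of edgeR 4.0.16 (R 4.3.3) were used, with p-values adjusted by Benjamini-Hochberg over all kept genes. Each model's 5 tumor groups were fitted together, both models jointly for comparisons between them, and the cell lines alone. A standard error is the log2 fold change over the square root of F. RPKM used union exon length (GENCODE M21) and TMM-scaled library sizes. The labels do not say that cell line replicates were separate cultures, so those p-values measure the spread between libraries.

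The 8 genes and all lists were chosen with earlier results of these data known. Beyond the 8, the text names Cdh1 and Epcam, up to 3 genes per EMT list with the largest called change, and the 3 protein-coding genes most like each member, and some results of that rule are not reported here. The labels number the replicates without saying that numbers pair mice. Same-numbered control and treated tumors deviated together at TP2 in both models (r of 0.114 to 0.144 in 60577 and 0.138 to 0.296 in HGS2, 3 pairs each). The number was therefore taken as a possible pairing there, and a block fit was an alternative. For TP3 treated against TP2 control tumors in 60577, r ran from 0.0612 to 0.176 and was not counted as pairing. Other alternatives were DESeq2 1.42.0, limma-voom (limma 3.58.1), DESeq2 size factors, no expression filter, an offset for gene length and GC content, no fold limit, both models in one fit, all 17 HGS2 tumors and leaving out each library. Leaving out the 3 acinar-rich tumors (over 1% of counts in 5 acinar genes) and crossing the cell line replicate numbers were added after the data were seen. The edgeR script was tested on simulated data.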

Additional observations from a re-analysis of the deposited data

Results flagged for a closer look

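Of 24 sets of 4 tumors, 2 held a tumor apart from the other 3 by Dixon's criterion, which chance alone passes in about 1 of 20. Zeb1 in 60577 TP2 treated replicate 1 stood above the other 3 (8.21 against 6.85 to 6.95 RPKM), with a gap of 0.9231 of the whole range. Cdh2 in 60577 TP2 treated replicate 2 stood above the other 3 (5.66 against 3.76 to 4.03 RPKM), with a gap of 0.8316 of the range. HGS2 TP3 treated replicate 1, which entered no fit, had a Snai2 level of 10.49 RPKM, above all 7 HGS2 controls, the highest of which was 8.64 RPKM.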

How the results depend on the processing

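No member changed direction from a called value under any setting run. Without the fold limit the count of members was 6 at TP2 and 5 at TP3 against TP2 controls in 60577, and 7 between control tumors. Among treated 60577 tumors it was 4 for TP2 against TP1, 3 for TP3 against TP2 and 4 for TP3 against TP1. With limma-voom it was 1 at TP1 and 0 for TP3 against TP1 treated tumors in 60577, and Twist2 lost its call in the lines (adjusted p = 0.0545). DESeq2 called 1 member, Cdh2, from TP2 to TP3 in HGS2. When each library was left out in turn, the count ran from 1 to 2 at TP1, from 1 to 4 at TP2, from 0 to 2 for TP2 against TP1 treated tumors and from 0 to 3 for TP3 against TP1 treated tumors in 60577, from 0 to 1 for the difference at TP1 and from 0 to 4 between lines. At TP3 against TP2 controls in 60577 the count ran from 2 to 4. The cause was not tested. With the offset for length and GC content, Snai1 from TP1 to TP3 came to -0.76 (adjusted p = 0.0748). With DESeq2 size factors Snai1 between the lines had an adjusted p of 0.0529.

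At TP2, where the replicate numbers counted as pairs, the block changed no call. It took Snai1 in 60577, which had passed below the fold limit, to an adjusted p of 0.0963. Since the block was shared by all groups of a fit, it did not test the TP2 pairs alone. In the other comparisons the numbers were not counted as pairs. There the replicate block moved Twist2 past the fold limit at TP3 against TP2 controls (1.08) and from TP1 to TP3 (1.05). With it, Snai1 from TP1 to TP3 (-0.89, adjusted p = 0.0590) and Snai2 between the lines (adjusted p = 0.0629) no longer passed. Crossing the numbers of the cell lines gave 3 calls in place of 4. Depth limits Twist2 in the lines, where 60577 had 11 and 9 reads.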

Other observations

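The marker lists beyond those set beside the 8 genes also changed in 60577 after treatment. Adipocyte markers (Adipoq, Plin1, Lep, Cidec and Fabp4) summed to between 0.610 and 4.28 RPKM in TP2 controls, to between 26.5 and 242 RPKM in TP2 treated tumors and to between 457 and 666 RPKM at TP3, with 5 of 5 called higher at both times. B cell markers at TP3 summed to between 87.6 and 122 RPKM, against 1.13 to 8.03 RPKM in TP2 controls, with 4 of 4 called higher. Mesothelial markers (Msln, Upk3b, Lrrn4, Wt1 and Muc16) summed to between 541 and 578 RPKM in TP1 controls and to between 161 and 261 RPKM in TP1 treated tumors, with 4 of 5 called lower, and to between 809 and 912 RPKM in the 60577 line.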
